A study of Caenorhabditis elegans with 2 samples.

Results

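The genes described here are fos-1 and 8 genes studied with it in anchor cell invasion: the transcription factor genes egl-43, nhr-67 and hlh-2, the matrix and cell surface genes zmp-1, cdh-3 and him-4, the cytoskeletal gene mig-10 and the signal gene lin-3. They are 9 of 19973 nuclear protein-coding genes. They were chosen by name for the known role of fos-1 and not by their values, but with earlier results of these data known. The data are lists of regions from chromatin immunoprecipitation with sequencing (ChIP-seq) of eGFP-tagged FOS-1 in whole L4 larvae of C. elegans, from 2 biological replicates of 1 group. Both replicates are pools of both sexes of strain OP304, which carries unc-119(ed3) III and the insertion wgIs304 with the tagged fos-1 gene, and no other strain, stage or treatment was compared. The labels do not say whether the untagged fos-1 gene is intact in this strain.

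The anchor cell is a specialised cell of the hermaphrodite gonad that breaches the basement membrane between uterus and vulva and signals to the vulval precursor cells. It is a single cell of each hermaphrodite, males have none, and it invades in the L3 stage, so whole L4 larvae of both sexes hold little of its chromatin, most of it later than invasion. Regions from whole larvae do not tell which cells were bound, and binding in fewer cells cannot be told apart from weaker binding in more cells. FOS-1 is the worm Fos protein, a basic leucine zipper (bZIP) transcription factor. In the anchor cell its long isoform, FOS-1A, is required for removal of the basement membrane, and zmp-1, cdh-3 and him-4 are known as genes whose expression there depends on it.

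For each gene the window was the gene body and 10000 bp to each side, on build ce11, and a region was placed by its summit. Of the 248 regions that the authors kept after their test of irreproducible discovery rate (IDR, how well replicates rank the same regions), 0 had a summit in any of the 9 windows. A window with such a summit was found for 5.48% of all protein-coding genes, so a count of 0 among 9 genes is close to that background and carries little information. The IDR set is sparse, with 0.0247 regions per 10000 bp of the genome. Among the 9 genes the shortest distance to an IDR summit was 82749 bp, from the 3' end of fos-1, and for mig-10 the nearest lay 424416 bp away. These distances were not set beside those of all genes. No promoter of the 9 genes held an IDR summit, against 0.806% of protein-coding genes with one.

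The longer pooled list, called on both replicates together, includes background by the authors' own naming and holds 3527 regions. It placed 16 summits in the windows of 7 of the 9 genes, against 49.5% of all protein-coding genes with at least 1 pooled summit. The best of the 16 ranked 523, at cdh-3, and the last 3522. The median −log10 q-value of the pooled list was 0.131, so a region of this list need not be a binding site. nhr-67 had 5 pooled summits, cdh-3 and him-4 had 3 each, lin-3 had 2, egl-43, zmp-1 and mig-10 had 1 each, and fos-1 and hlh-2 had 0. The median over all protein-coding genes was 0, with an upper quartile of 1. These counts are not corrected for window length, which ran from 23133 bp for hlh-2 to 56200 bp for him-4. Per 10000 bp the genome had 0.352 pooled regions. The windows had 2 for nhr-67, 0.903 for cdh-3, 0.679 for lin-3 and 0.534 for him-4. The others had 0.384 for zmp-1, 0.359 for egl-43, 0.214 for mig-10, and 0 for fos-1 and hlh-2. In the plot of summits along the 9 genes, few pooled summits stand over a gene body: 6 of the 16 lay in the body of the gene in question, 1 in its promoter, and 4 were nearer to its 5' end than to that of any other protein-coding gene. By place, 6 of the 16 were intergenic (47.9% of all pooled regions), 5 in introns (29.7%), 3 in coding exons (13%), 2 in 3' UTRs (6.83%) and 0 in 5' UTRs (2.27%).

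**Figure D1:**
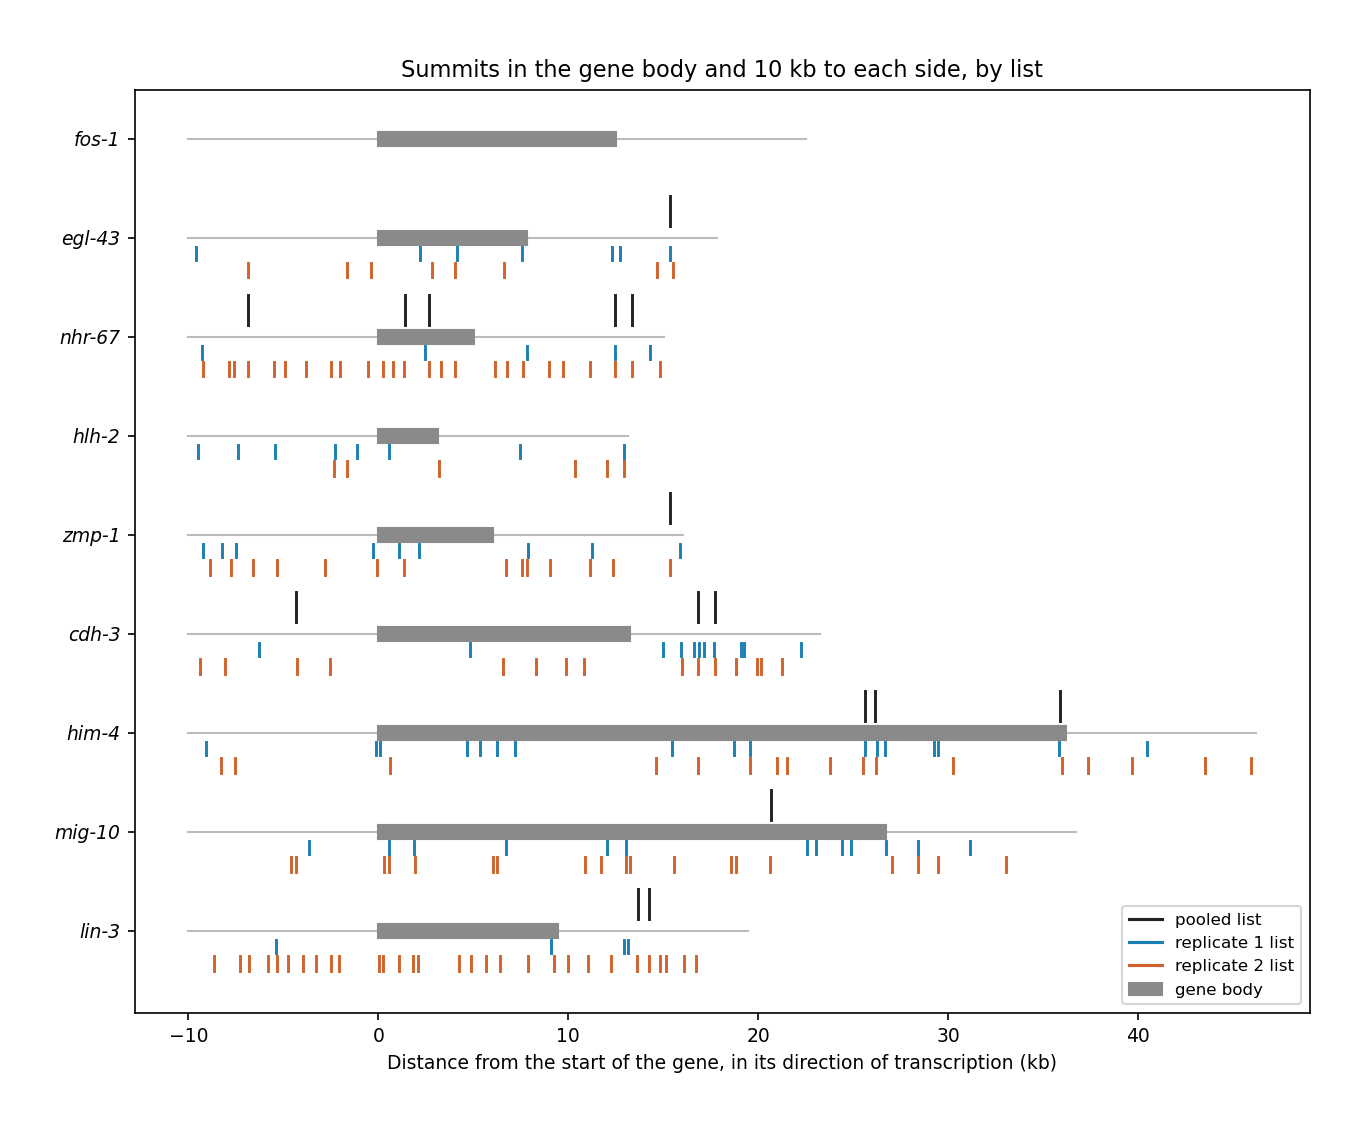
Summits of the pooled, replicate 1 and replicate 2 lists along the 9 genes, each drawn from 10 kb before the gene to 10 kb after it in its direction of transcription (x axis, kb); grey boxes are gene bodies and each tick is a summit. fos-1 has no tick, and nhr-67 and lin-3 have dense rows of replicate 2 ticks.

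All 16 pooled summits had a replicate 2 summit within 200 bp, but 8 had a replicate 1 summit within that distance. Those without a replicate 1 summit stood at nhr-67, lin-3, zmp-1, cdh-3 and mig-10. Over the whole pooled list, 88.5% of regions were matched in replicate 2 and 84.9% in replicate 1, and 73.9% in both. The replicate lists are much longer, with 30000 regions in replicate 1 and 29345 in replicate 2, so nearly every gene has some: 99% of protein-coding genes had a replicate 1 summit in the window and 98.7% a replicate 2 summit. Their median −log10 q-values were 0.0965 in replicate 1 and 0.0946 in replicate 2, so a region of these lists need not be a binding site either. The 9 windows held 74 replicate 1 summits and 134 replicate 2 summits. A summit of the other list lay within 200 bp for 22 of the 74 (29.7%, against 23.6% of the whole replicate 1 list) and for 22 of the 134 (16.4%, against 24.2% of the nuclear regions of replicate 2). The 134 were unevenly spread: 25 were at nhr-67, of which 3 were matched, and 30 at lin-3, of which 2 were matched.

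Of the 74 replicate 1 summits, 33 lay in the body of 1 of the 9 genes and 4 in their promoter windows. By place, 24 were in coding exons (23.1% of the whole replicate 1 list), 23 in introns (34.2%), 14 intergenic (36.2%), 12 in 3' UTRs (4.66%) and 1 in a 5' UTR (1.67%). Of the 134 replicate 2 summits, 49 lay in a gene body and 8 in promoter windows. They divided into 55 in introns (34.4% of the whole replicate 2 list), 38 intergenic (39.8%), 30 in coding exons (18.9%), 8 in 3' UTRs (4.98%) and 2 in 5' UTRs (1.78%), and 1 was in an exon outside these classes.

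The replicate 2 excess came mainly from nhr-67 and lin-3. nhr-67 had 5 summits in replicate 1 and 25 in replicate 2, and lin-3 had 4 in replicate 1 and 30 in replicate 2. mig-10 had 13 in replicate 1 and 19 in replicate 2, zmp-1 had 9 in replicate 1 and 14 in replicate 2, and cdh-3 had 11 in replicate 1 and 15 in replicate 2. For the remaining genes the lists were close: egl-43 had 7 in replicate 1 and 8 in replicate 2, hlh-2 had 8 in replicate 1 and 6 in replicate 2, and him-4 had 17 in each. The medians over all protein-coding genes were 7 in replicate 1 and 6 in replicate 2, with no correction for window length. Per 10000 bp the genome had 2.99 in replicate 1 and 2.92 in replicate 2. In replicate 1 the windows had 2 for nhr-67, 1.36 for lin-3, 2.78 for mig-10, 3.45 for zmp-1 and 3.31 for cdh-3. In replicate 2 these had 9.98 for nhr-67, 10.2 for lin-3, 4.07 for mig-10, 5.37 for zmp-1 and 4.52 for cdh-3. egl-43 had 2.51 in replicate 1 and 2.87 in replicate 2, hlh-2 had 3.46 and 2.59, and him-4 had 3.02 in each. An excess of replicate 2 as large as that of lin-3, 26 summits, was found for 0.02% of protein-coding genes, and one as large as that of nhr-67, 20 summits, for 0.0701%.

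**Figure D2:**
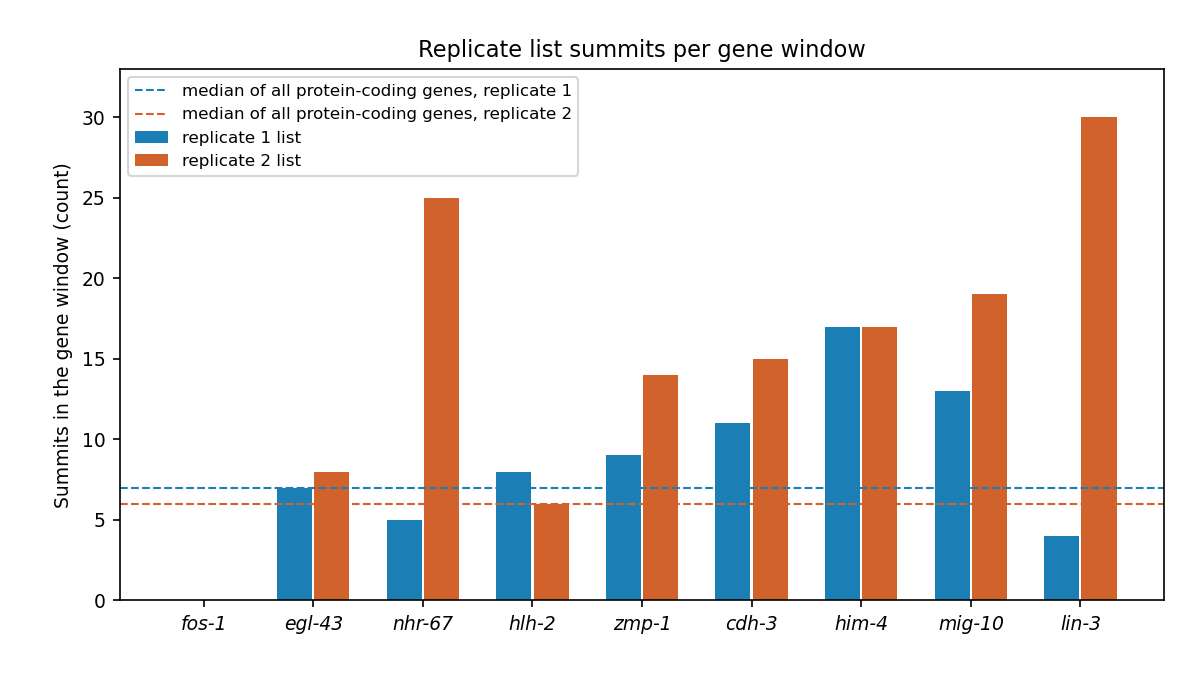
Number of summits in each gene window (y axis) in the replicate 1 list (left bar) and the replicate 2 list (right bar), with the medians of all protein-coding genes as dashed lines. lin-3 and nhr-67 stand far above both lines in replicate 2 and below both in replicate 1, while fos-1 has none in either.

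Among the regulators, fos-1 (WBGene00001345, V 6003601 to 6016087, plus strand) stood in a stretch with no region in any list. The counts were 0 in replicate 1, 0 in replicate 2, 0 in the pooled list and 0 in the IDR set. A window empty in both replicate lists was found for 0.421% of protein-coding genes, 84 in number. Before the gene the nearest summit lay 25273 bp away in replicate 1 and 26641 bp in replicate 2. After it the distance was 14057 bp in replicate 1 and 22145 bp in replicate 2. The empty stretch from summit to summit was 51816 bp in replicate 1, the 6th longest of 29994 such gaps, and 61272 bp in replicate 2, the 5th longest of 29321. The median gap was 2161 bp in replicate 1 and 2156 bp in replicate 2. The replicate 2 gap holds 9 whole protein-coding genes: dhs-16, C10F3.7, fut-8, cpg-4, fos-1, rpt-2, aps-1, picc-1 and dhs-17.

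The fos-1 gene is rich in the AP-1 consensus site, the letters TGACTCA or TGAGTCA, bound by Fos and Jun dimers. Each is the reverse complement of the other, so the search covers both strands. The fos-1 window held 9 such sites, or 2.77 per 10000 bp against 0.955 over the nuclear genome, and 2.02% of protein-coding genes had a window as dense. Of the 9 sites, 6 lay in the gene body, and 3 of these stood within 107 bp of each other in an intron. The nuclear genome holds 3 places where 3 sites fall within that length, a length taken from this cluster; the other two are in a coding exon of Y46G5A.20 and in an intron of str-155. The cluster is shown on the plus strand at chrV:6012264-6012390, sites in capitals.
fos-1 intron: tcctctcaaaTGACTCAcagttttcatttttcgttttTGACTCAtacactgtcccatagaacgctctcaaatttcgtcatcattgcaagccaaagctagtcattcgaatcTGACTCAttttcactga

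Another 2 sites of fos-1 fell in promoter windows, taken from 1000 bp upstream to 200 bp downstream of any annotated 5' end. The first, at V 6007989 to 6007995, lay 76 bp upstream of a 5' end inside the gene. The second, at V 6010905 to 6010911, lay 100 bp downstream of another, in a 5' UTR. Both are shown on the plus strand because they are the sites nearest to 5' ends of fos-1, with the site in capitals and 10 bases to each side.
fos-1 upstream site: tcgatgttgcTGACTCAccatcaatat
fos-1 downstream site: cattacataaTGACTCAtcaggacgta
The nearest replicate 1 summit to any of the 9 sites was 13192 bp away and the nearest replicate 2 summit 21280 bp away, so the sites of this gene were all outside any listed region. The lack of a listed region does not show a lack of binding. The strain also carries the tagged fos-1 gene as an insertion, and both replicate lists rest on a common control alignment. What part these have in the empty stretch was not tested.

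egl-43 (WBGene00001207, II 9955185 to 9963020, plus strand) encodes a zinc finger transcription factor that acts with fos-1 in the anchor cell. Its single pooled summit ranked 2774, with a signal of 17.5, the authors' peak caller's own value. It lay 40 bp upstream of the 5' end of R53.5, beyond the 3' end of egl-43. Its replicate 1 match ranked 2766 and its replicate 2 match 7095. Within the gene, the best region was an intronic summit of replicate 1 at rank 3692, with no replicate 2 summit within 200 bp. In promoter windows, replicate 2 had 1 summit, 365 bp upstream of the first 5' end at rank 29016, and replicate 1 had 1, 928 bp upstream of a 5' end inside the gene at rank 16116. The replicate 1 summit had a replicate 2 match 83 bp away at rank 13200, just outside the promoter window. The window held 7 AP-1 sites, or 2.51 per 10000 bp, a density reached by 2.98% of protein-coding genes. Of these, 5 lay 4447 to 7316 bp upstream of the first 5' end. One of them, at II 9948305 to 9948311, had a replicate 2 summit 5 bp away, but at rank 24791 with a signal of 5.57, and its nearest replicate 1 summit lay 2718 bp away. It is shown on the plus strand as the egl-43 site nearest to a summit.
egl-43 upstream site: ctgctcaaacTGACTCAaaccctctga

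nhr-67 (WBGene00003657, IV 11169748 to 11174791, plus strand) encodes a nuclear receptor of the tailless family that holds the anchor cell in cell cycle arrest. Its pooled summits ranked 1116, 1942, 2735, 3174 and 3368, and a count of 5 or more was reached by 1.31% of protein-coding genes. Of these, 2 lay in introns of nhr-67, 1377 and 2669 bp downstream of its 5' end. The first of the intronic pair was the best-ranked replicate 2 region of all 9 windows, at rank 308 with a signal of 17.9, and it had no replicate 1 summit within 200 bp. The second ranked 1096 in replicate 2 and 25132 in replicate 1. The summit at rank 1116 lay in an intron of the neighbouring gene cpt-2, 318 bp downstream of the nearest of its annotated 5' ends, and was the best matched of the 5, at rank 3275 in replicate 2 and rank 6469 in replicate 1. The remaining 2 were at fbxb-9 and prx-14, and neither had a replicate 1 match. None of the 5 held an AP-1 site within 100 bp. The single AP-1 site in the gene body, in an intron 969 bp downstream of the 5' end, had a replicate 2 summit 178 bp away at rank 7077 and no replicate 1 summit nearer than 1504 bp. The promoter window had 1 replicate 2 summit, 546 bp upstream of the 5' end at rank 9355, and none in replicate 1.

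hlh-2 (WBGene00001949, I 7190788 to 7193920, minus strand) encodes the E protein, a basic helix-loop-helix factor that acts in anchor cell specification. It had no pooled summit, and the nearest lay 31552 bp away. Its best replicate 1 summit, rank 1474 with a signal of 12.2, was at M05B5.3, and its best replicate 2 summit, rank 2591 with a signal of 11.5, was nearest to M05B5.1. The replicate 2 summit was matched 8 bp away in replicate 1 at rank 28550, and the replicate 1 summit had no match. Neither list had a summit in an hlh-2 promoter window, against 39.7% of protein-coding genes with one in replicate 1 and 39.8% in replicate 2.

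lin-3 (WBGene00002992, IV 11054308 to 11063768, plus strand) encodes the EGF-like ligand by which the anchor cell induces the vulva. Its 2 pooled summits, at ranks 560 and 1847 with signals of 25.2 and 19.1, both lay beyond the 3' end of lin-3, 1519 and 929 bp upstream of ttr-17. They ranked 1605 and 1188 in replicate 2, and neither had a replicate 1 summit within 200 bp. Inside lin-3 there were 11 replicate 2 summits and 1 replicate 1 summit. The single replicate 1 summit, at rank 13165, had a replicate 2 match at rank 7854. In promoter windows of lin-3 there were 3 replicate 2 summits, the best at rank 6774, and 0 in replicate 1. The AP-1 site nearest upstream of a lin-3 5' end, at 716 bp, had its nearest summit 547 bp away in replicate 2 and 6455 bp away in replicate 1. Another 3 sites of the window had a replicate 2 summit within 200 bp, at ranks 11081, 14325 and 17146, and none in replicate 1. The site upstream of the 5' end, at chrIV:11056935-11056961 on the plus strand, is shown as the only one in a lin-3 promoter window.
lin-3 promoter site: catcgttgacTGACTCAtgccactgaa

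lin-3 and nhr-67 lie in one stretch of chromosome IV that was rich in replicate 2 regions. In bins of 20 kb, the median over 5010 bins was 6 summits in each replicate list. A run of 7 bins, 140 kb at IV 11040001 to 11180000, had 15 or more replicate 2 summits in every bin, a level reached in replicate 2 by 0.818% of all bins and in replicate 1 by 0.459%. It was the longest such run in either replicate list, and the only other run of at least 3 bins was 60 kb long, on chromosome I. The stretch held 34 replicate 1 summits and 139 replicate 2 summits, which is 2.43 per 10000 bp in replicate 1 and 9.93 in replicate 2. It held 21 pooled regions, 1.5 per 10000 bp against 0.352 over the genome, and 0 IDR regions. Of the 139, 18 (12.9%) had a replicate 1 summit within 200 bp. It spans 42 protein-coding genes, so the counts of nhr-67 and lin-3 are shared with their neighbours. The bin size and the threshold of 15 were set after the values were seen. The extent of the run, with its counts, also depends on where the bins start. In bins counted from the start of lin-3, every bin from 60 kb before it to 120 kb after it held 15 to 22 replicate 2 summits. Without nhr-67 and lin-3, the other 7 genes had 9 pooled summits.

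**Figure D3:**
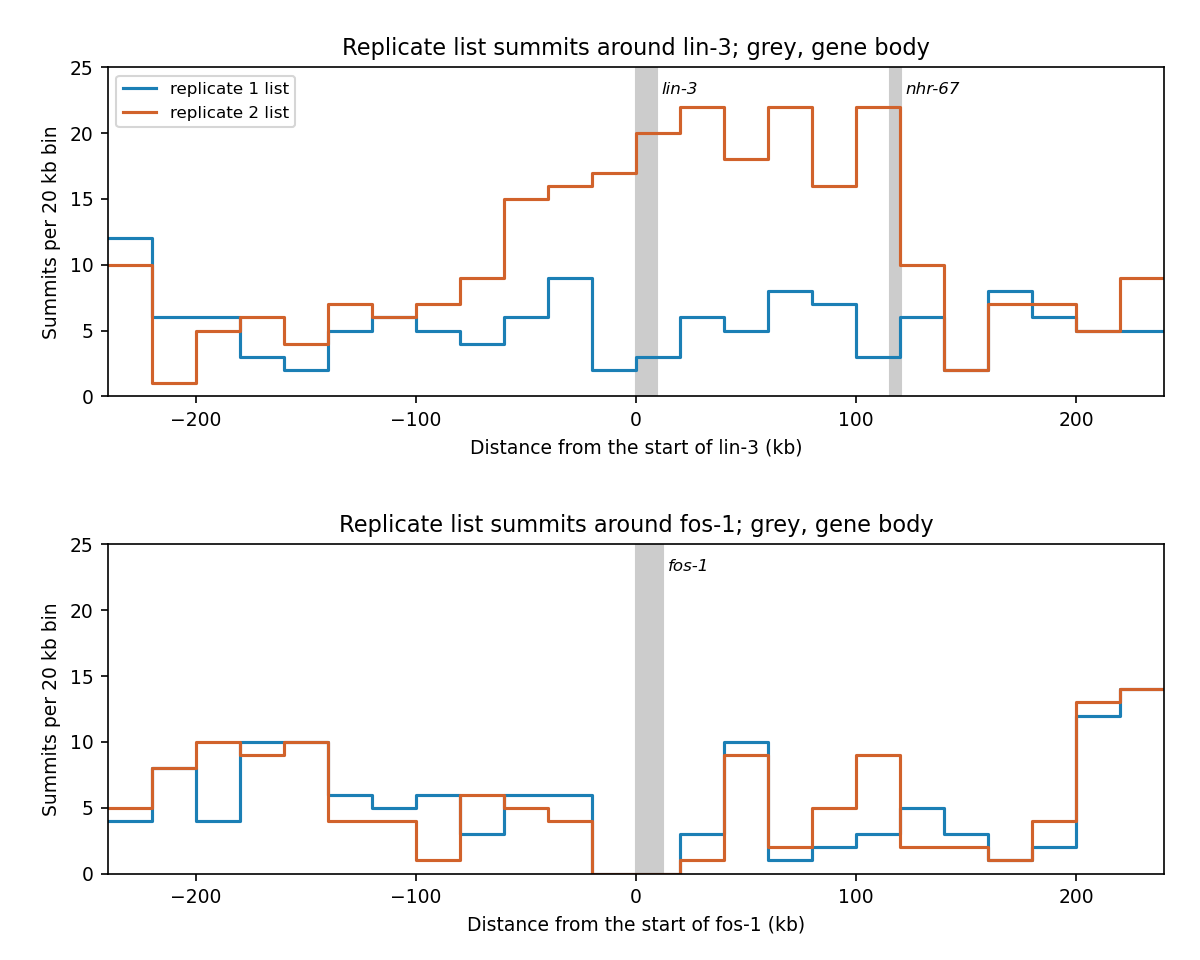
Summits per 20 kb bin (y axis) in both replicate lists by distance from the start of lin-3 (top) and fos-1 (bottom), with gene bodies in grey. From 60 kb before the lin-3 start to 120 kb after it the replicate 2 line runs at 15 to 22 while replicate 1 stays at 2 to 9, and on both sides of the fos-1 start both lines fall to 0.

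Among the matrix and surface genes, zmp-1 (WBGene00006987, III 5926895 to 5932953, minus strand) encodes a matrix metalloprotease. Its pooled summit ranked 1743 with a signal of 19.4, at the far edge of the window just past the 3' end of tdo-2, and matched a replicate 2 summit at rank 420 and no replicate 1 summit. At the zmp-1 promoter itself there was an AP-1 site, TGACTCA on the plus strand, at III 5933030 to 5933036, 80 bp upstream of the 5' end. A replicate 2 summit lay 2 bp from the site, at rank 9259 with a signal of 8.24. The nearest replicate 1 summit lay 209 bp from the site, at rank 19830 with a signal of 5.86, just outside the distance of 200 bp that counts as near. The −log10 q-value was 0.168 for the replicate 2 region and 0.0653 for the replicate 1 region. A second site in zmp-1, in an intron 1368 bp downstream of the 5' end, had a replicate 2 summit 11 bp away at rank 25150 and a replicate 1 summit at 271 bp. EGAP1.5, a gene inside zmp-1 on the other strand, has its nearest annotated 5' end 136 bp from that site. The best replicate 1 summit inside zmp-1, at rank 5208, lay 20 bp downstream of another EGAP1.5 5' end and had no replicate 2 match. The 151 bases around the promoter summit of replicate 2, chrIII:5932960-5933110, are shown on the strand of the gene with the site in capitals.
zmp-1 promoter: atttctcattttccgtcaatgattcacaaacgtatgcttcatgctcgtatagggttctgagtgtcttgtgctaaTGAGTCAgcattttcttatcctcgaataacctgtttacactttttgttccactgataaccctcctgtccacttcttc

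cdh-3 (WBGene00000395, III 7741229 to 7754448, minus strand) encodes a protocadherin of the Fat family. It had the best pooled summit of the 9 windows, at rank 523 with a signal of 25.7, and a second at rank 2215 with a signal of 18.3. Both lay in the 3' UTR of the neighbouring gene ncl-1, 2187 and 3064 bp from the 5' end of WBGene00022661, and not in cdh-3. Both regions were matched in both replicate lists. The first was at rank 464 in replicate 1 and rank 2078 in replicate 2. The second was at rank 1290 in replicate 1 and at rank 5220 in replicate 2, there with a −log10 q-value of 0.291. The third, at rank 3522 with a signal of 16.6, was the only one of the 16 with an AP-1 site within 100 bp, against 3.01% of all pooled regions and 8.06% of the IDR regions. In the replicate lists such a site stood at 3 of the 74 summits (4.05%, against 2.1% of the whole replicate 1 list) and at 6 of the 134 (4.48%, against 2.28% of the whole replicate 2 list). The third pooled summit was intergenic, 4325 bp upstream of the 5' end of cdh-3 and 130 bp upstream of the 5' end of pcp-1. It ranked 898 in replicate 2 with no replicate 1 match. The 151 bases around its replicate 2 summit, chrIII:7758671-7758821 on the plus strand, are shown for this site, in capitals.
pcp-1 promoter: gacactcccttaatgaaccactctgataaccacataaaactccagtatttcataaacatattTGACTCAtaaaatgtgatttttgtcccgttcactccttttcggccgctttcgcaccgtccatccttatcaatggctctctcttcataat
Neither replicate list had a summit in the promoter window of cdh-3. In its body were 1 replicate 1 summit and 4 replicate 2 summits.

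him-4 (WBGene00001863, X 9717565 to 9753764, plus strand) encodes hemicentin, a large secreted matrix protein that joins neighbouring basement membranes. It is the longest of the 9 genes, at 36200 bp, and the only one on the X chromosome. Its 3 pooled summits, at ranks 2081, 2150 and 3235, all lay inside the gene, and all 3 were matched in both replicates. The summit at rank 2150 was matched at rank 4714 in replicate 1 and rank 5999 in replicate 2. The other two were uneven: 25058 in replicate 1 and 6703 in replicate 2 for rank 2081, and 4016 in replicate 1 and 23659 in replicate 2 for rank 3235. Per length its window was close to the genome in the replicate lists, with 3.02 summits per 10000 bp in each. The genome had 2.99 in replicate 1 and 2.92 in replicate 2. In the pooled list the window had 0.534 per 10000 bp, against 0.352 over the genome. The gene body held 14 of the replicate 1 summits and 11 of the replicate 2 summits. At its promoters, replicate 1 had 2 summits, the better at rank 3302 and 111 bp upstream of the first 5' end, and replicate 2 had 1, at rank 22629 and elsewhere. The window held 12 AP-1 sites, 2.14 per 10000 bp, and none had a summit within 200 bp in any list.

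mig-10 (WBGene00003243, III 8279101 to 8305837, plus strand) encodes the worm lamellipodin, an adaptor that links netrin signalling to actin. It had the only pooled summit in a promoter window of its own gene, 450 bp upstream of a 5' end inside the gene, in an intron of the longer transcripts. That region ranked 2672 with a signal of 17.6, and 552 in replicate 2 with a signal of 15.7, and had no replicate 1 summit within 200 bp. A pooled promoter summit was found for 7.67% of protein-coding genes. mig-10 also had 3 AP-1 sites with a replicate 1 summit within 200 bp, all in the gene body. The one at III 8279743 to 8279749, in an intron 638 bp downstream of a 5' end, was the only site of the 9 windows with a summit within 200 bp in both replicate lists, 90 bp away at rank 15836 in replicate 1 and 71 bp away at rank 28771 in replicate 2. The one at III 8291074 to 8291080 had the higher region, rank 1591 in replicate 1 at 64 bp, with the nearest replicate 2 summit 280 bp away at rank 2234. The third, at III 8302076 to 8302082 in a coding exon, had a replicate 1 summit at rank 23026. The 3 sites are shown on the plus strand with 10 bases to each side.
mig-10 intron site near a 5' end: tttttgtctgTGACTCAcaatttccta
mig-10 inner intron site: cattcctttgTGACTCAtctcaactgc
mig-10 exon site: ctgcatttggTGACTCAagttcaactg

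Over all 9 windows there were 50 AP-1 sites, of which 3 had a replicate 1 summit within 200 bp and 9 a replicate 2 summit. Of the 9580 sites of the nuclear genome, 12.7% had a replicate 1 summit within that distance and 13.3% a replicate 2 summit. Of the 50, 1 had both, against 3.36% of all sites, 1 had a pooled summit, against 1.94%, and 0 had an IDR summit, against 0.303%. A site in a promoter window was found for 3 of the 9 genes, fos-1, zmp-1 and lin-3, against 13.6% of protein-coding genes. The genes differ in their number of annotated 5' ends, with 6 for fos-1, 7 for lin-3 and 1 for zmp-1, so the length searched differs too. Each match describes letters in the reference sequence and does not show binding.

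**Figure D4:**
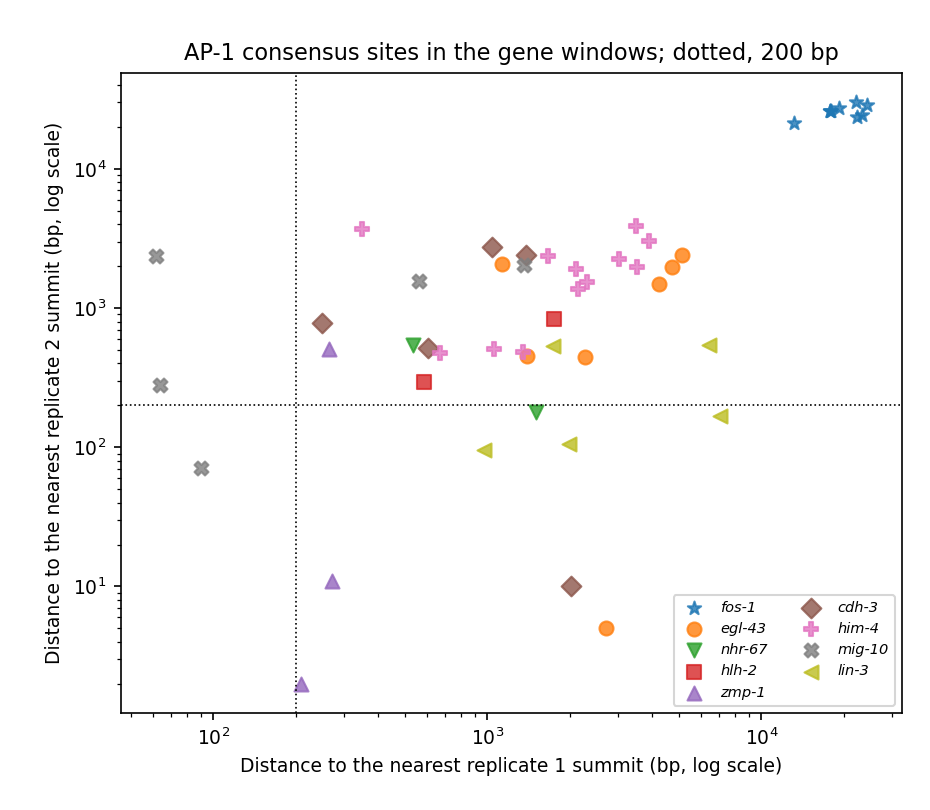
Distance from each of the 50 AP-1 sites to the nearest replicate 1 summit (x axis) and replicate 2 summit (y axis), both in bp on log scales, with 200 bp as dotted lines and a marker for each gene. The fos-1 sites sit alone at the upper right, and 1 mig-10 site lies within 200 bp on both axes.

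Other genes of the pathway were taken from 6 lists, and 51 of 52 symbols were found in the annotation. None of the 51 had an IDR summit in its window, against 5.48% of all protein-coding genes with one. Pooled summits were in the windows of 5 of 7 genes of anchor cell fate, transcription and cell cycle, 6 of 10 of the netrin receptor and cytoskeleton list, 2 of 5 integrins and other matrix receptors, and 6 of 11 basement membrane genes. They were in those of 3 of 8 metalloproteases and inhibitors and 5 of 10 genes of the vulval EGF and Ras pathway. Together these are 27 of 51 (52.9%), near the 49.5% of all protein-coding genes. In the netrin list, unc-115, which encodes an actin-binding protein, had 6 pooled summits in its window, the best at rank 331 (signal 28.8), 314 bp upstream of a 5' end of its neighbour oac-14. unc-40, the netrin receptor gene, had 1 at rank 796 in aprt-1, and unc-60, which encodes cofilin, had 1 at rank 895, 761 bp upstream of a 5' end it shares with F53E2.2 and with 1 AP-1 site within 100 bp.

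Among the vulval genes, lin-1 (an ETS factor) had a summit at rank 579, mpk-1 (the ERK kinase) at rank 580 and let-23 (the EGF receptor that binds LIN-3) at rank 650. That of let-23 lay in a coding exon 2317 bp downstream of the nearest of its 5' ends, at rank 9170 in replicate 1 and 1532 in replicate 2, and those of lin-1 and mpk-1 were nearer to mksr-2 and nhr-20. In the metalloprotease list, the window of zmp-5 held a summit at rank 653, nearer to C02B4.3. cri-2, an inhibitor of metalloproteases, had one at rank 1715, 348 bp upstream of its 5' end, while the window of mig-17 held one at rank 2862, 9671 bp from the mig-17 5' end and nearer to T11F9.1. Of the basement membrane genes, lam-2 (rank 1145), fbl-1 (rank 1228) and let-2 (rank 1626) had the best ranks, and only that of fbl-1, 1941 bp upstream of the 5' end, was nearest to the gene itself. For lin-29 (rank 1507) and lin-12, the Notch receptor gene (rank 1599), the summits lay near vps-15 and R107.5, while cki-1, which encodes a cyclin-dependent kinase inhibitor, had one at rank 1806, 876 bp upstream of its 5' end. Among the matrix receptors, the windows of ddr-2 (rank 2130) and pat-2 (rank 2551) held 1 each, the first nearer to F11D5.6 and the second in a coding exon of pat-2.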

How the data were processed

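The authors' deposited lists on build ce11 were used: the IDR set, the pooled list and a list for each of 2 biological replicates. Per the file lists the authors deposited, a replicate list rests on that replicate's reads and a control alignment common to both, the pooled list on both replicates, and the IDR set on these lists. The sources used here do not give the peak caller, aligner or IDR threshold. The signal of a region is the authors' deposited value, of unknown scale, and ranks follow it within a list. The −log10 q-value is also the authors' deposited value. Read depth is unknown, so no interval is given. No comparison of conditions exists, no test was run, and counts are set beside all nuclear protein-coding genes of Ensembl release 115.

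Summits of replicates matched within 200 bp. AP-1 sites were searched on both strands within 100 bp of a summit. The genes, gene lists and alternatives were chosen with earlier results of these data known. The text names the 9 genes, the gene with the nearest 5' end, and up to 3 genes of each pathway list, by best pooled rank; other genes, including those of the gap at fos-1, were named after their values were seen. The empty stretch at fos-1, the rich stretch at lin-3 and the cluster of 3 AP-1 sites were described after the values were seen. Sequences are from the RefSeq genome of build WBcel235, the same as ce11. Lists on ce10 were not used. Python 3.11.15 and matplotlib 3.10.9 were used, and the search was tested on simulated data.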

Additional observations from a re-analysis of the deposited data

How the results depend on the processing

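Of 26 recomputed counts, 16 stayed within 1.5 times the reported value and 10 moved. The number of pooled summits in the 9 windows, 16, was 30 with 20000 bp to each side, 4 when the pooled list was cut at its median rank, 4 where the gene had to have the nearest 5' end, and 9 without nhr-67 and lin-3 (chosen after seeing the data). With 1 replicate list alone, at the length of the pooled list, it was 9 to 29: 9 in replicate 1 and 29 in replicate 2, of which nhr-67 and lin-3 held 8 each in replicate 2 and 0 each in replicate 1. The number of genes with a pooled summit, 7, was 4 with the list cut at its median rank (29.5% of all protein-coding genes). It was 3 by the nearest 5' end, for which no share of all genes was computed. With 1 replicate list alone it was 6 in replicate 1 (49.7% of all protein-coding genes) and 7 in replicate 2 (49%). Summits matched in both replicates, 8, were 5 within 100 bp. Genes with a promoter AP-1 site, 3, were 5 with TGANTCA (35.3% of protein-coding genes), chosen after seeing the data. The count of genes with an IDR summit, 0, stayed 0 under the 4 alternatives run. With 5000 or 20000 bp to each side no window held an IDR summit. The top 248 regions of each replicate list, used in place of the IDR set, also had no summit in the 9 windows. Such a summit was found for 5.2% of all protein-coding genes in replicate 1 and 4.8% in replicate 2, so these counts of 0 carry little information. No paired analysis was possible because there is 1 group. Depth is unknown, and its part in the replicate difference was not tested.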
